A study of Mus musculus with 1615 samples.

Results

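A set of 10 genes of the calcium store of muscle cells was followed through single cells of the mouse colon. They are the calcium pumps Atp2a2 and Atp2a3, the pump regulators Pln and Sln, the release channels Ryr2, Ryr3, Itpr1 and Itpr2, and the luminal and junctional proteins Casq2 and Srl. The members were found by matching their symbols to the Ensembl identifiers of the count table, and all 10 were present among 46517 genes. The members named most below are Pln (ENSMUSG00000038583, chr10:53337667-53345987, GENCODE, GRCm38), Atp2a3 (ENSMUSG00000020788, chr11:72961169-72993044), Srl (ENSMUSG00000022519, chr16:4480216-4541816), Casq2 (ENSMUSG00000027861, chr3:102086415-102146514) and Ryr2 (ENSMUSG00000021313, chr13:11553102-12106945).

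The sarcoplasmic reticulum is the calcium store of a muscle cell. Pumps of the SERCA family load it: Atp2a2 encodes SERCA2 and Atp2a3 encodes SERCA3. Phospholamban (Pln) and sarcolipin (Sln) are small membrane proteins that bind pumps such as SERCA2 and slow them. Phosphorylation of phospholamban lifts the brake. Calcium leaves the store through ryanodine receptors (Ryr2, Ryr3), which open when calcium rises, and through IP3 receptors (Itpr1, Itpr2), which open when a surface receptor makes inositol trisphosphate. Calsequestrin (Casq2) binds calcium inside the store, and sarcalumenin (Srl) is a calcium-binding glycoprotein of its lumen. In smooth muscle, release from the store feeds contraction, and local ryanodine receptor release can also open potassium channels that relax the cell.

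The series holds 1615 cells from 11 mice of 5 reporter strains, each cell sorted into a plate well and made into a full-length Smart-seq2 library without molecular identifiers. The dual strain ACTA2GFP:CSPG4dsRED gave mice 20GG95:3 (female), 20GG79:1 (female) and 20GG79:6 (male), and the strains PDGFRbGFP, PDGFRaH2bGFP, ACTA2GFP and CSPG4dsRED gave the other mice, all male. A reporter marks cells with activity of the gene it is named after, so the cell classes of a mouse depend on its reporter and on sort gates (not given in the sources used here). No mouse was treated. The labels give the tissue as colon and ages between 8 and 30 weeks, whereas one protocol names the heart. The cardiomyocyte list, including Myh6, Myh7 and Tnnt2, summed to 0.586 to 1.35 CPM (counts scaled to the gene total of each sum) in vascular muscle and to 0.764 to 1.63 CPM in visceral muscle.

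Cells held 45388 to 1046988 gene counts (median 194180). Clustering without any calcium gene gave 482 visceral smooth muscle-like cells, 99 vascular smooth muscle-like cells and 178 pericyte-like cells. It also gave 363 blood endothelial, 216 fibroblast, 76 lymphatic endothelial, 61 epithelial, 41 glial and 27 immune cells, each named only as like its markers, and 72 cells that stayed unnamed. The unnamed cells carried visceral markers but were led by the mesothelial genes Upk3b, Msln and Lrrn4, and 66 of them carried markers of more than 1 class. Counts were summed per mouse and class where a mouse had at least 5 cells. Vascular muscle came from mouse 20GG79:1 (9 cells) and mouse 20GG95:3 (90 cells), visceral muscle from the same mice (159 and 321 cells), and pericytes from 20GG79:1 (55), 20GG95:3 (94) and 20GG79:6 (29). Each mouse lay on plates of its own. Among the mice with muscle sums, 20GG95:3 lay on plates colon_053s and colon_506s and 20GG79:1 on 1 plate, so between these mice, mouse and plate cannot be told apart. Of its pericytes, 82 formed a cluster with no cell of another mouse, and the other 12 shared a cluster with both other mice.

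The 250 bases before the transcription start are shown for Pln and Atp2a3, which differed between the muscle classes, and Casq2, abundant in both (RefSeq, GRCm38.p6, strand +). Srl, which also differed, was not matched in the promoter table. Pln lies at chr10:53337436-53337685, Atp2a3 at chr11:72960919-72961168 and Casq2 at chr3:102086165-102086414. Capitals mark a TATAAA match 219 bases before the Pln start and a MEF2 site, TTATTTTTAG, 69 bases before the Casq2 start.
Pln: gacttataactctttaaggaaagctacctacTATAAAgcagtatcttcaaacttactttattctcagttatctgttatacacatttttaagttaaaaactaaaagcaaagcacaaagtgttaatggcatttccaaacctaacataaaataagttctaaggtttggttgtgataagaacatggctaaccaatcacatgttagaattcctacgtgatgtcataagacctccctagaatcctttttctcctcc
Atp2a3: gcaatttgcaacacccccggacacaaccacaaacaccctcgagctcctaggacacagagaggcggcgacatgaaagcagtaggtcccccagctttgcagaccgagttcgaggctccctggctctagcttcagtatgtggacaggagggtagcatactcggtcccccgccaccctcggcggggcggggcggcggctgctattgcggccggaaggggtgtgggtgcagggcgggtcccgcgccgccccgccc
Casq2: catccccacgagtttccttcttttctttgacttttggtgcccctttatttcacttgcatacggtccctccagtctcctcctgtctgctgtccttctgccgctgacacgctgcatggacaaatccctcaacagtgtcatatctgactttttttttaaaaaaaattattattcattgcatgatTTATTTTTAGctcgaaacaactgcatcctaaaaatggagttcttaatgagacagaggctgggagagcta
Both strands were searched for 4 motifs: the CArG box bound by serum response factor, the RBPJ core TGGGAA, the MEF2 site and TATAAA. Sequence was found for 5 of the 10 members, the others in this set being Ryr2 and Itpr2. None of the 5 held a CArG box or TGGGAA in this window. Among 32851 promoters of the same length, 1.47% held a CArG box, 21.6% TGGGAA, 2.92% a MEF2 site and 12.4% TATAAA. These are letter matches only.

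Pln, the phospholamban gene, was high in vascular muscle, intermediate in pericytes and near 0 in visceral muscle. Its level in vascular muscle was 897 CPM in 20GG79:1 and 938 CPM in 20GG95:3. In visceral muscle of the same mice it was 0.682 and 2.59 CPM. Pericytes had 205 CPM in 20GG79:1, 55.4 CPM in 20GG95:3 and 240 CPM in 20GG79:6. The 3 classes did not overlap between mice. Elsewhere Pln was at most 34.4 CPM, in blood endothelium of 18CB39:3, where 1 of 53 cells held 72.5% of the counts.

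The difference between visceral and vascular muscle in Pln was -9.51 ± 0.49 on the log2 scale (SE, 2 mice), lower in visceral muscle in both mice (edgeR quasi-likelihood test, adjusted p = 1.351e-77). Vascular muscle also stood apart in dissociation-response genes, such as Fos and Jun, whose summed level was 21129 to 25089 CPM against 6958 to 7692 CPM in visceral muscle and 3424 to 8209 CPM in pericytes; their part in the members' differences was not tested. Pln in 20GG95:3 was 1057 CPM on plate colon_053s and 782 CPM on plate colon_506s in vascular muscle, and 3.24 and 1.99 CPM in visceral muscle. With 1 residual degree of freedom, the p-values and SE values of this comparison rest on a spread pooled over genes. The weight given to that pooled spread (median prior degrees of freedom) was infinite here. It was 11.7 in pericyte minus vascular and 4.63 in pericyte minus visceral, so p-values of these comparisons are not on the same footing. With either mouse left out, only a fit with a spread shared over all classes could be run. That kind of fit called 0 members with both mice as well, so it cannot show what a single mouse contributes to the call. Over 14 alternatives the Pln difference ran from -10.2 to -8.62.

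Against vascular muscle, pericyte Pln differed by -3.32 ± 0.53 (SE) on the log2 scale (edgeR adjusted p = 0.00955, lower in 2 of 2 mice). Pericytes of 20GG95:3 split by plate, with 6.77 CPM on colon_053s and 89.0 CPM on colon_506s, where 1 cell held 79.2% of the Pln counts. Without plate colon_506s the difference was -4.77 and did not pass (edgeR adjusted p = 0.518). P2rx1, a purinergic receptor gene of the vascular marker list, was at 804 and 926 CPM in vascular muscle of 20GG79:1 and 20GG95:3 and at 2.93 and 10.1 CPM in their pericytes. In 20GG79:6 pericytes P2rx1 was at 76.8 CPM. P2rx1 was used to cluster and name the classes, so its contrast between them follows partly from the naming. Without cells of mixed markers, pericyte Pln was 211 CPM in 20GG79:1, 55.6 CPM in 20GG95:3 and 248 CPM in 20GG79:6.

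Single cells gave the same order for Pln. Cells were thinned to 50000 counts, and shallower cells were left out. After this, 90.9% of vascular muscle cells had a Pln count, against 34.7% of pericytes and 5.0% of visceral cells. Before thinning these shares were 94.9%, 51.1% and 13.9%. Blood endothelium, which is not a contractile class, gave 6.16% after thinning (exact Clopper-Pearson 95% interval 3.9 to 9.18%), at a median depth of 237889 counts against 184855.5 in visceral muscle. By mouse, the thinned Pln share was 3.77% and 5.62% in visceral muscle of 20GG79:1 and 20GG95:3 and 0 to 10.8% in blood endothelium over 6 mice. Among 99 vascular cells, 86 had counts of both Pln and Atp2a3, and all 28 cells with Srl also had Pln, which 94 of the 99 carried. The Pln gene lies within Cep85l on the opposite strand, and the strand setting of the counting was not given in the sources used here. Cep85l was at 31.9 and 92.4 CPM in vascular muscle and at 19.9 and 44.5 CPM in visceral muscle.

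Sln, the sarcolipin gene, had 25 counts in the whole table. They came from 1 fibroblast with 24 counts and 1 vascular muscle cell with 1 count. In the visceral sums a count of 0 allowed up to 0.0293 CPM over both mice (3 counts), and in pericytes up to 0.111 CPM. Intervals and limits of this kind cover counting error only.

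**Figure D1:**
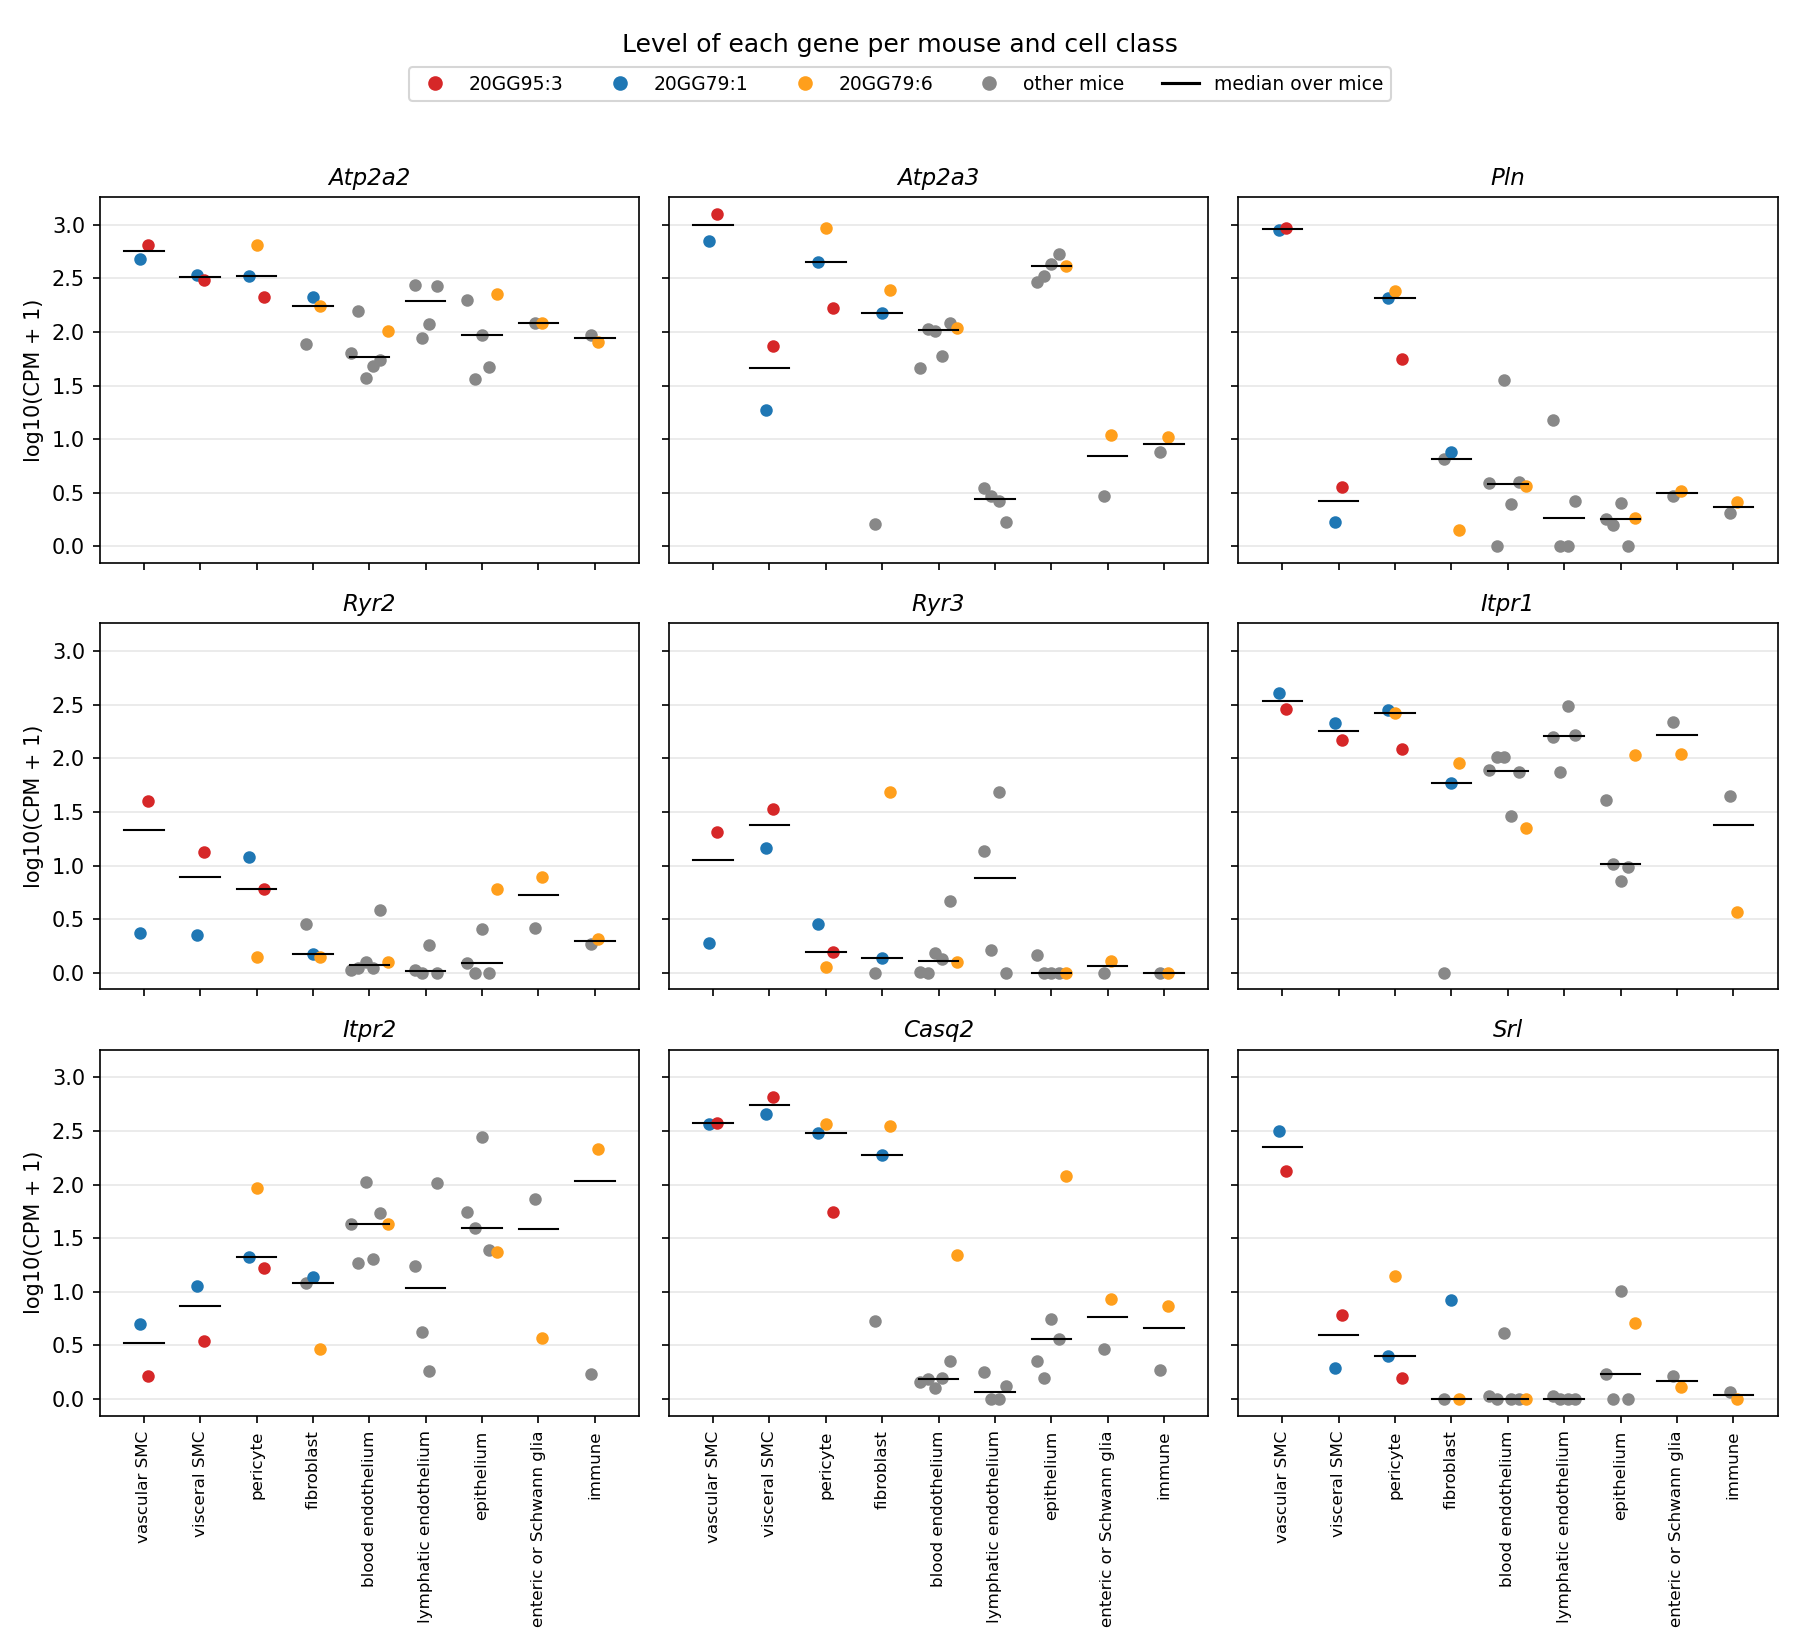
Level of 9 members, as log10(CPM + 1), in each mouse (points) and cell class, with the median over mice as a line. Pln and Srl are high in vascular muscle alone among the muscle classes (Pln 897 and 938 CPM, Srl 313 and 134 CPM), whereas Casq2 is high in visceral and vascular muscle and uneven in pericytes (54.5 to 363 CPM).

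Of the pumps, Atp2a3 separated the muscle classes and Atp2a2 was present in all of them. Atp2a3 was at 706 CPM in vascular muscle of 20GG79:1 and 1271 CPM in that of 20GG95:3. Visceral muscle had 17.9 and 73.4 CPM. Pericytes lay between, with 451 CPM in 20GG79:1, 167 CPM in 20GG95:3 and 928 CPM in 20GG79:6, and the pericytes of 20GG79:6 were above the vascular cells of 20GG79:1. The visceral minus vascular difference of Atp2a3 was -4.82 ± 0.39 (SE, 2 mice), lower in visceral muscle of both mice (edgeR adjusted p = 4.94e-33).

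Against vascular muscle, pericyte Atp2a3 differed by -2.0 ± 0.54 (SE, edgeR adjusted p = 0.182, lower in 2 of 2 mice), which did not pass. It passed under 4 of 12 alternatives, and its adjusted p ranged from 0.00038 to 1.0. Between the plates of 20GG95:3, Atp2a3 in pericytes was 113 and 204 CPM. Epithelium also carried Atp2a3, at 295 to 539 CPM over 5 mice with a median of 412 CPM, and 83.3% of epithelial cells had a count after thinning. SERCA3 is known as a pump of epithelial, endothelial and blood cells.

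Atp2a2, the housekeeping pump gene of the family, was at 482 and 647 CPM in vascular muscle, 342 and 307 CPM in visceral muscle, and 329, 213 and 646 CPM in pericytes (20GG79:1, 20GG95:3 and, for pericytes, 20GG79:6). The visceral minus vascular difference was -0.90 ± 0.35 (SE, edgeR adjusted p = 0.144), the pericyte minus vascular difference was -1.29 ± 0.43 (SE, edgeR adjusted p = 0.331), and neither passed. Outside muscle and pericytes its sums lay between 35.8 and 274 CPM, with blood endothelium from 36.5 to 156 CPM. The predicted gene Gm43361 overlaps Atp2a2 on the opposite strand and had 6389 counts in all, against 88652 for Atp2a2.

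Srl, the sarcalumenin gene, was seen mainly in vascular muscle and unevenly there. It had 313 CPM in 20GG79:1 and 134 CPM in 20GG95:3, against 0.930 and 5.04 CPM in visceral muscle. Pericytes had 1.52, 0.572 and 12.9 CPM in 20GG79:1, 20GG95:3 and 20GG79:6. The visceral minus vascular difference was -6.65 ± 0.79 (SE, lower in 2 of 2 mice, edgeR adjusted p = 5.53e-15), and the pericyte minus vascular difference was -7.96 ± 0.86 (SE, lower in 2 of 2 mice, edgeR adjusted p = 0.000753).

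Only 28 of 99 vascular cells had an Srl count, and the top 5 cells held 59.5% of the counts. On plate colon_053s Srl was at 225 CPM, with counts in 19 of 50 cells, and on plate colon_506s at 14.6 CPM, with counts in 4 of 40 cells. Without plate colon_053s the visceral minus vascular difference was -4.74 and did not pass (edgeR adjusted p = 0.314). Without plate colon_506s it was -7.52 (edgeR adjusted p = 0.00154), while the pericyte difference of -7.91 did not pass (edgeR adjusted p = 0.064).

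Casq2, the cardiac form of calsequestrin, was abundant in both muscle classes. Visceral muscle had 459 CPM in 20GG79:1 and 651 CPM in 20GG95:3, and vascular muscle had 363 and 379 CPM. Visceral muscle was higher in both mice, but the difference of 0.44 ± 0.34 (SE) did not pass (edgeR adjusted p = 0.721). Pericytes had 300 CPM in 20GG79:1, 54.5 CPM in 20GG95:3 and 363 CPM in 20GG79:6. In 20GG95:3 the pericytes were low on both plates, at 52.3 and 56.1 CPM, and on colon_506s a single cell held 75.3% of those counts.

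Among the other classes, Casq2 reached 189 and 350 CPM in fibroblasts of 20GG79:1 and 20GG79:6, against 4.31 CPM in 5 fibroblasts of 19CB38:5. The visceral marker list summed to 1845, 2180 and 397 CPM in these fibroblasts, and Myh11 was at 216, 142 and 17.8 CPM. Of the 216 fibroblasts 64 carried markers of more than 1 class. Without them Casq2 was at 189 and 349 CPM in 20GG79:1 and 20GG79:6. The class values hide a split between fibroblast clusters A and B, the latter led by genes such as Bmp7, Wif1 and Pdgfra. In 20GG79:1, Casq2 was at 58.5 CPM in A and 479 CPM in B, and in 20GG79:6 at 19.4 and 607 CPM. The visceral list summed to 1780 (A) and 1990 CPM (B) in 20GG79:1 and to 2390 and 2016 CPM in 20GG79:6. Myh11 was at 160 and 341 CPM, and at 111 and 166 CPM. Casq2 was at 716 CPM in the unnamed cells of 20GG79:6. Blood endothelium had at most 1.26 CPM except in 20GG79:6, at 21.1 CPM, and epithelium at most 4.59 CPM except in that same mouse, at 120 CPM. A single cell held 65.9% of the counts in that blood endothelium and 94.4% in that epithelium, and without it the values were 7.53 and 9.46 CPM. In these classes of 20GG79:6 the smooth muscle myosin gene Myh11 was at 82.5 and 694 CPM, and the part of muscle RNA in the Casq2 values of these classes and of the fibroblasts was not tested.

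Per length (TPM, in which CPM is divided by exon length and rescaled to the same total; mean ± SD over 2 mice), Pln led the members in vascular muscle with 1033 ± 39.4 TPM. Atp2a3 followed with 582 ± 239 TPM and Casq2 with 421 ± 15.3 TPM; these overlapped, since Atp2a3 and Casq2 were at 413 and 410 TPM in 20GG79:1. Atp2a2 had 289 ± 61.6 TPM, Srl 130 ± 73 TPM and Itpr1 58.5 ± 14.1 TPM. In visceral muscle Casq2 led with 634 ± 132 TPM, above Atp2a2 with 168 ± 19.2 TPM. There Itpr1 had 31.2 TPM, Atp2a3 26.7 TPM and Pln 1.84 TPM. Pericytes had no clear leader: Atp2a3, Casq2, Atp2a2 and Pln had 309 ± 242, 276 ± 194, 205 ± 126 and 190 ± 116 TPM (SD, n = 3). Pln and the pump genes lay in opposite order in the muscle classes. The Pln level per length exceeded that of either pump gene in vascular muscle of both mice. In visceral muscle of both mice it was below both pump genes.

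Of the release channels, Itpr1 was broad. It was at 406 and 285 CPM in vascular muscle, 213 and 148 CPM in visceral muscle, and 283, 120 and 266 CPM in pericytes of 20GG79:1, 20GG95:3 and 20GG79:6. The visceral minus vascular difference of -1.05 ± 0.42 (SE) did not pass (edgeR adjusted p = 0.16). Lymphatic endothelium had 74.0 to 310 CPM of Itpr1 over 4 mice, which overlapped the visceral, pericyte and 20GG95:3 vascular values, and glia had 219 and 110 CPM.

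Itpr2 was low in muscle and higher in blood endothelium and epithelium. It was at 4.05 and 0.651 CPM in vascular muscle and 10.3 and 2.46 CPM in visceral muscle. Blood endothelium had 17.4 to 106 CPM over 6 mice, with a median of 42.1 CPM, and epithelium 22.4 to 278 CPM over 5 mice, with a median of 38.7 CPM; the highest epithelial value, in 19CB27:3, came to 96.2% from 1 cell and was 13.8 CPM without it. Lymphatic endothelium ran from 0.813 to 104 CPM over 4 mice, with a median of 9.88 CPM, and overlapped visceral muscle. After thinning, 46.7% of epithelial cells had an Itpr2 count. Pericytes had 20.2 CPM in 20GG79:1, 15.6 CPM in 20GG95:3 and 91.2 CPM in 20GG79:6. The immune value of 214 CPM in 20GG79:6 came from 1 cell that held 96.6% of the counts.

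Ryr2 and Ryr3 were sparse, with 1816 and 4184 counts in the whole table. In vascular muscle Ryr2 was at 1.35 CPM in 20GG79:1 and 39.2 CPM in 20GG95:3, with 59.2 CPM on plate colon_053s and 13.1 CPM on colon_506s, and 1 cell held 40.7% of the counts. Vascular Ryr3 was at 0.899 and 19.5 CPM, with 90.7% of the counts in 1 cell. In visceral muscle Ryr2 was at 1.24 and 12.4 CPM and Ryr3 at 13.5 and 32.4 CPM. Visceral minus vascular differences were -1.08 ± 1.78 for Ryr2 and 2.02 ± 1.83 for Ryr3 (SE, edgeR adjusted p = 0.958 and 0.806), each in the same direction in 2 of 2 mice, and neither passed. Over 14 alternatives the Ryr3 difference ran from 0.60 to 4.03.

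**Figure D2:**
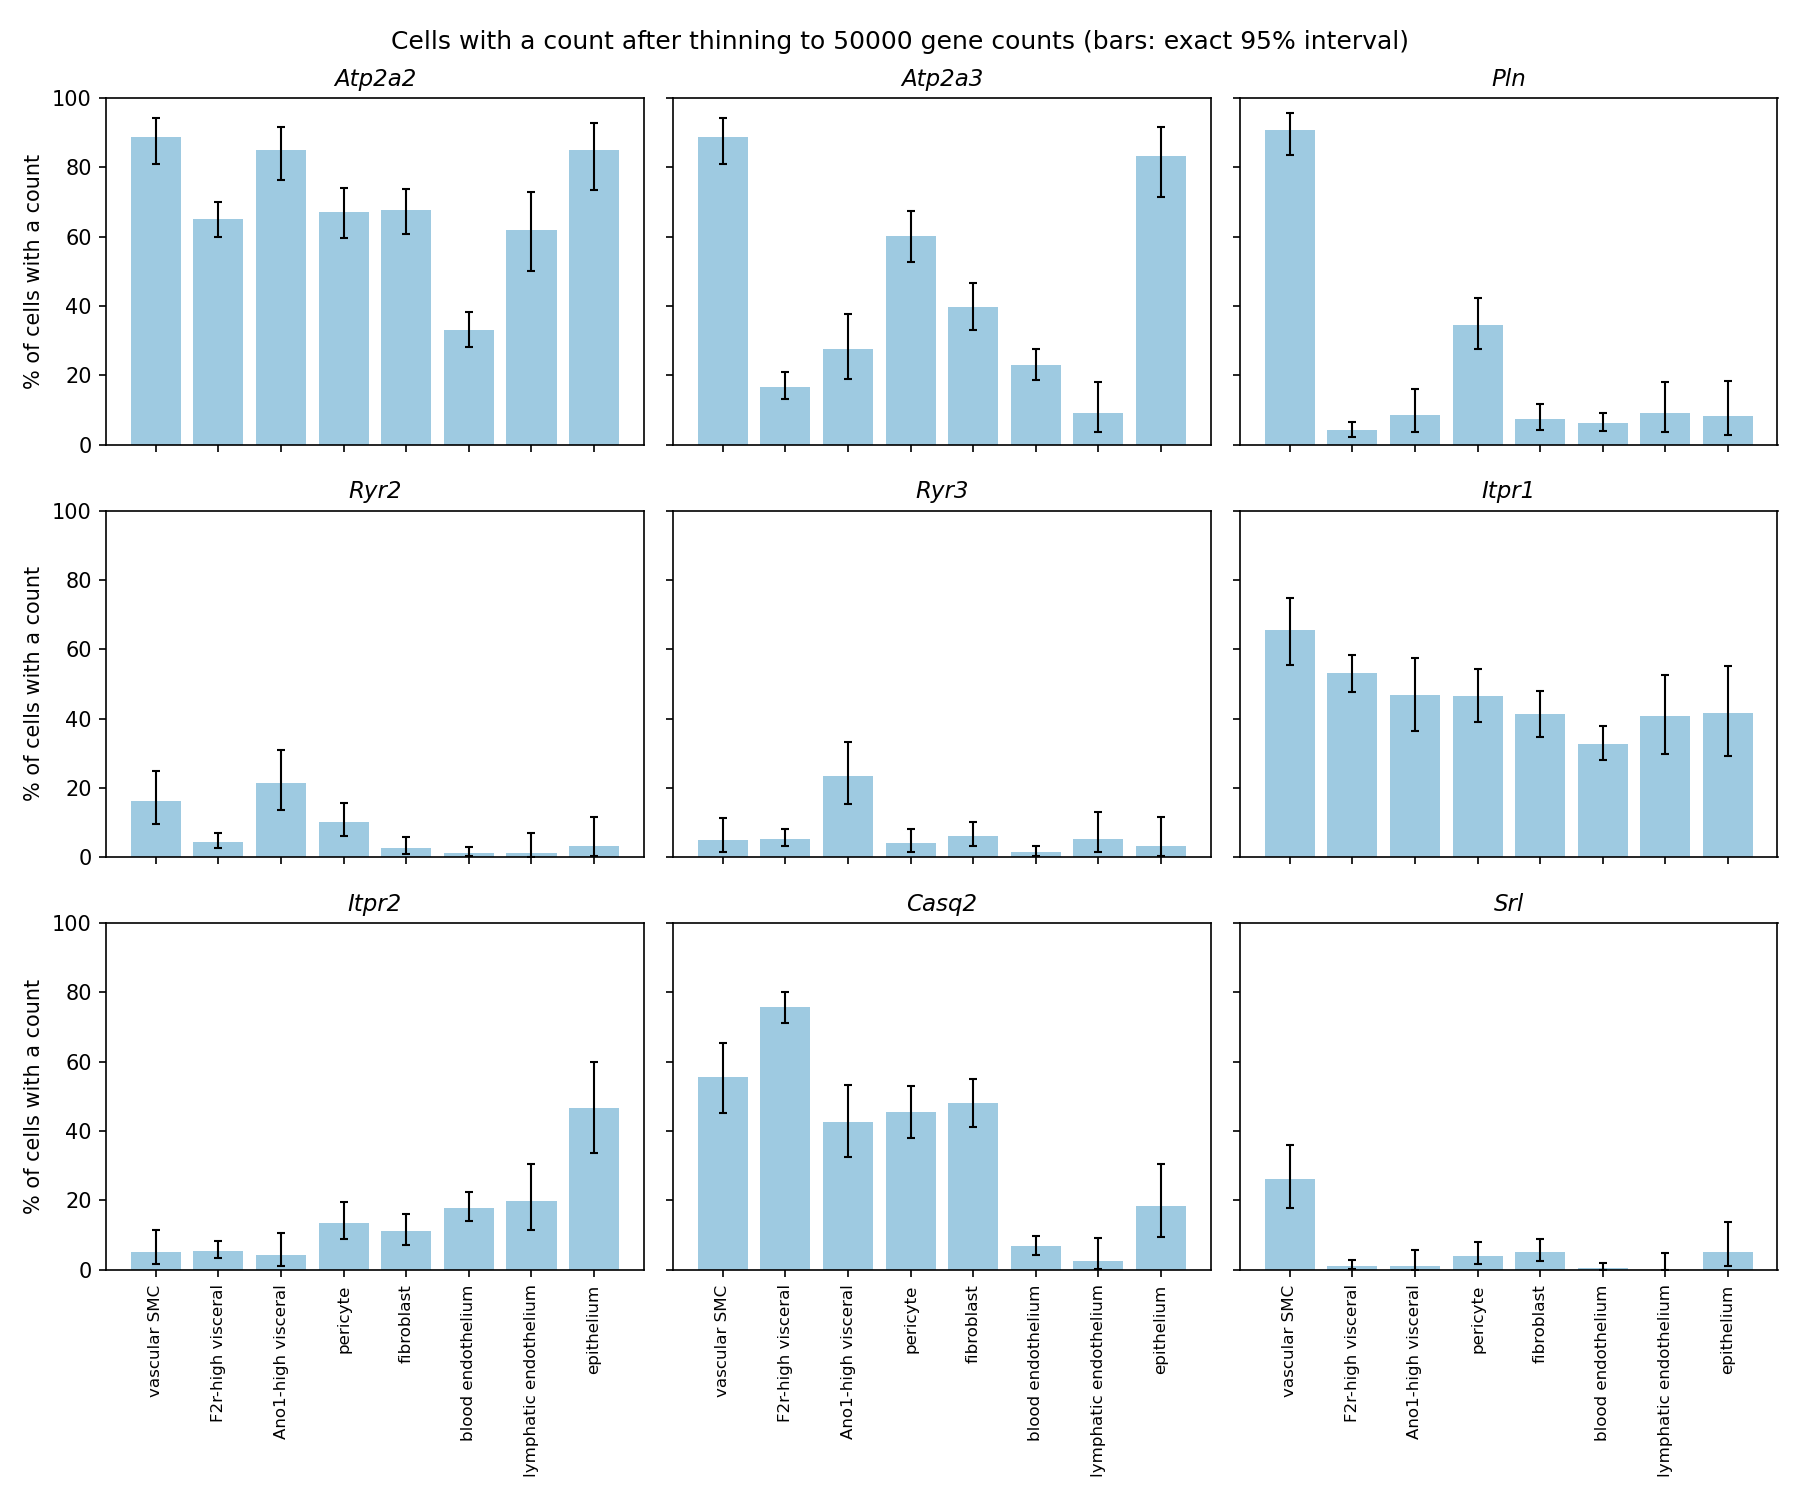
Share of cells with at least 1 count of each member after cells were thinned to 50000 gene counts, by cell class, with exact 95% intervals. Shallower cells were left out. Pln and Srl stand out in vascular muscle (90.9% and 26.3% of cells), Atp2a3 in vascular muscle and epithelium (88.9% and 83.3%), and Ryr3 in the Ano1-high visceral cells (23.4%).

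Across the visceral minus vascular comparison, 3 of the 9 members that could be tested were lower in visceral muscle (Pln, Atp2a3 and Srl), where 2.5% of 14301 genes were lower, and 0 were higher, where 2.41% of genes were higher. The 6 others did not pass. The median log2 difference was -1.05 over the members and 0.33 over all genes tested. By pericyte minus vascular, Pln and Srl were the 2 of 9 members that were lower (0.564% of 12062 genes were), and 0 were higher (0.282% of genes were). Median differences there were -1.75 over the members and 0.22 over all genes. No paired sum of visceral muscle with fibroblasts or blood endothelium reached 2 mice, so those comparisons were not run.

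Pericyte minus visceral gave 0 of 9 members higher and 0 lower by edgeR, against 0.423% and 0.336% of 14901 genes, with 4 members at an unadjusted p under 0.05. DESeq2 on the same sums called those 4: Pln and Atp2a3 higher, Ryr3 and Casq2 lower in pericytes. The edgeR differences were 6.14 ± 1.22 for Pln (adjusted p = 0.144), 2.78 ± 0.96 for Atp2a3 (0.325), -4.43 ± 1.45 for Ryr3 (0.309) and -2.23 ± 0.78 for Casq2 (0.331), each in the same direction in 2 of 2 mice (SE). With the unnamed cells counted as visceral, a setting chosen after the data were seen, Pln passed at 6.87 (edgeR adjusted p = 0.0319). That setting adds 20GG79:6, where 70 of the 72 cells so counted were of the unnamed cluster led by mesothelial genes.

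**Figure D3:**
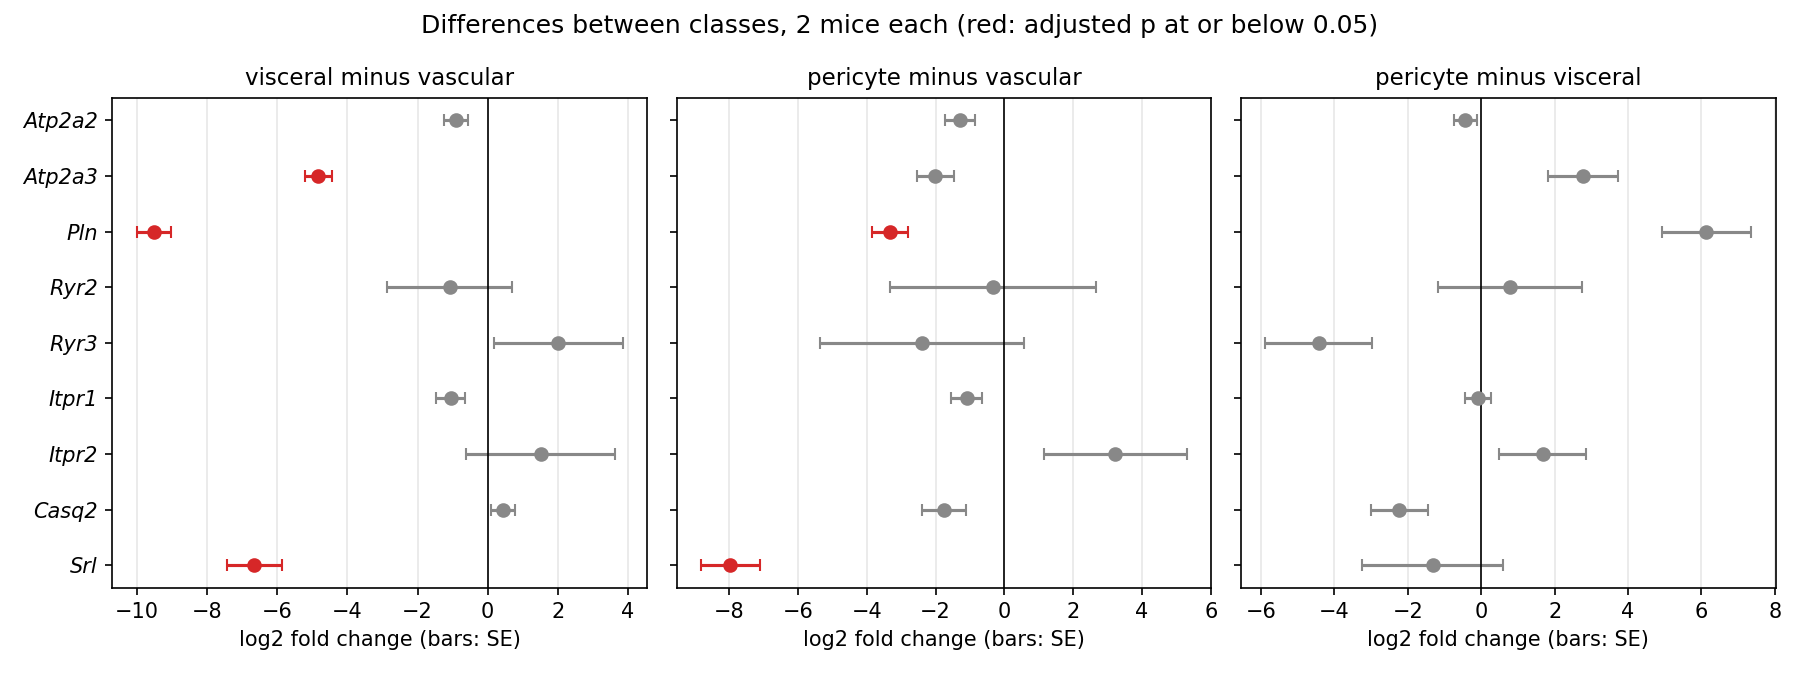
Log2 fold change (point) with its SE (bar) of each member in the 3 comparisons of muscle and pericytes, each over 2 mice, with red for an edgeR adjusted p at or below 0.05. Pln, Atp2a3 and Srl are red in visceral minus vascular (-9.51, -4.82 and -6.65), Pln and Srl in pericyte minus vascular, and none in pericyte minus visceral.

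Visceral muscle held an F2r-high kind (365 cells), marked by the thrombin receptor gene F2r, and an Ano1-high kind (94 cells), marked by the chloride channel gene Ano1. These kinds depend on the clustering: at resolution 0.5 in place of 1, 217 cells were called Ano1-high, of which 144 were F2r-high in the clustering used here, and 21 Ano1-high cells became F2r-high. Of the Ano1-high cells 91 came from 20GG95:3 (30 on plate colon_053s and 61 on colon_506s), so their contrast with the 207 F2r-high cells of that mouse has no replicate mouse and no test. Kit and Etv1, which mark interstitial cells of Cajal, were at 4.41 and 2.08 CPM in the Ano1-high cells, and Ano1 at 1206 CPM. Myh11 was at 5835 CPM in the Ano1-high and 5792 CPM in the F2r-high cells. The fibroblast list summed to 2395 CPM in the Ano1-high cells and to 6455 to 7110 CPM in the F2r-high cells of 2 mice.

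In 20GG95:3, Ryr2 was higher and Casq2 lower in the Ano1-high cells on both plates. The Ryr2 level was 41.4 CPM (639 counts, exact Poisson 95% interval 38.3 to 44.8) against 0.830 CPM (29 counts, 0.556 to 1.19), a ratio of 49.9. A single Ano1-high cell held 157 of the 639 counts, and a single F2r-high cell 13 of the 29. The Poisson intervals here and below take reads as independent and do not cover the spread between cells or mice. On plate colon_053s Ryr2 was 56.2 against 0.165 CPM, and on colon_506s 26.6 against 1.55 CPM. In 20GG79:1 the F2r-high cells had 1.27 CPM, and the 3 Ano1-high cells had 0 counts of Ryr2 and of Ryr3, which allows up to 2.93 CPM. With the kinds of resolution 0.5, Ryr2 in 20GG95:3 was 17.6 against 8.34 CPM, a ratio of 2.11. Over all mice, 30.9% of Ano1-high and 14.5% of F2r-high cells had a Ryr2 count before thinning, and 21.3% and 4.4% after it. In 20GG95:3 alone, 29 of 91 Ano1-high and 16 of 207 F2r-high cells had a Ryr2 count before thinning.

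Casq2 was at 75.7 CPM (1168 counts, 71.5 to 80.2) in the Ano1-high cells and 934 CPM (32633 counts, 924 to 944) in the F2r-high cells, a ratio of 12.3. On plate colon_053s the values were 92.6 and 1125 CPM, and on colon_506s 58.7 and 727 CPM. In 20GG79:1 the F2r-high cells had 468 CPM and the 3 Ano1-high cells together 22.5 CPM. At resolution 0.5 the Casq2 values of 20GG95:3 were 490 and 876 CPM, a ratio of 1.79. The 23 visceral cells of neither kind, all from 20GG95:3, had 376 CPM.

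Ryr3 was also higher in the Ano1-high cells, at 90.5 against 10.2 CPM, but its size differed between plates: 41.7 against 19.1 CPM on colon_053s and 140 against 0.476 CPM on colon_506s. One F2r-high cell of colon_053s held 89.0% of the Ryr3 counts there. Among the 61 Ano1-high cells of colon_506s, 18 had a Ryr3 count, and 1 cell held 527 of the 1072 counts. Both ryanodine receptor genes were counted in 11 of the 94 Ano1-high cells, with Ryr2 in 29 and Ryr3 in 27. Atp2a2 was 404 against 232 CPM, Itpr1 123 against 159 CPM and Atp2a3 94.1 against 71.8 CPM. At resolution 0.5, Ryr3 was 44.3 against 23.9 CPM, and Atp2a2 turned to 228 against 348 CPM. Srl had 3 counts in the Ano1-high cells (0.195 CPM, 0.0401 to 0.569) and 269 in the F2r-high cells (7.70 CPM, 6.81 to 8.67), of which 2 cells of plate colon_506s held 207. Srl went the other way in 20GG79:1, where 1 of the 3 Ano1-high cells held all 34 counts (33.2 CPM, against 0.232 CPM in the F2r-high cells), and it also turned in 20GG95:3 at resolution 0.5 (7.82 against 2.67 CPM).

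A rule set after these values were seen asked for at least 20 CPM in the same kind on both plates. It also asked for at least 4-fold on both plates, with 1 CPM added to each value. Of the 6 members considered, 1 was higher (Ryr2) and 1 lower (Casq2). By the same rule 2.57% of 5091 genes were higher and 2.4% lower, and of 33 other store genes 0 passed. Because the rule followed the values, the outcomes of Ryr2 and Casq2 were known beforehand, and these shares do not test them. At resolution 0.5, with the plates pooled, the ratios were 2.11 for Ryr2 and 1.79 for Casq2, less than 4-fold. The F2r-high cells of 20GG95:3 fell into a cluster mainly of plate colon_053s and another mainly of plate colon_506s, so the plate moves with that split.

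**Figure D4:**
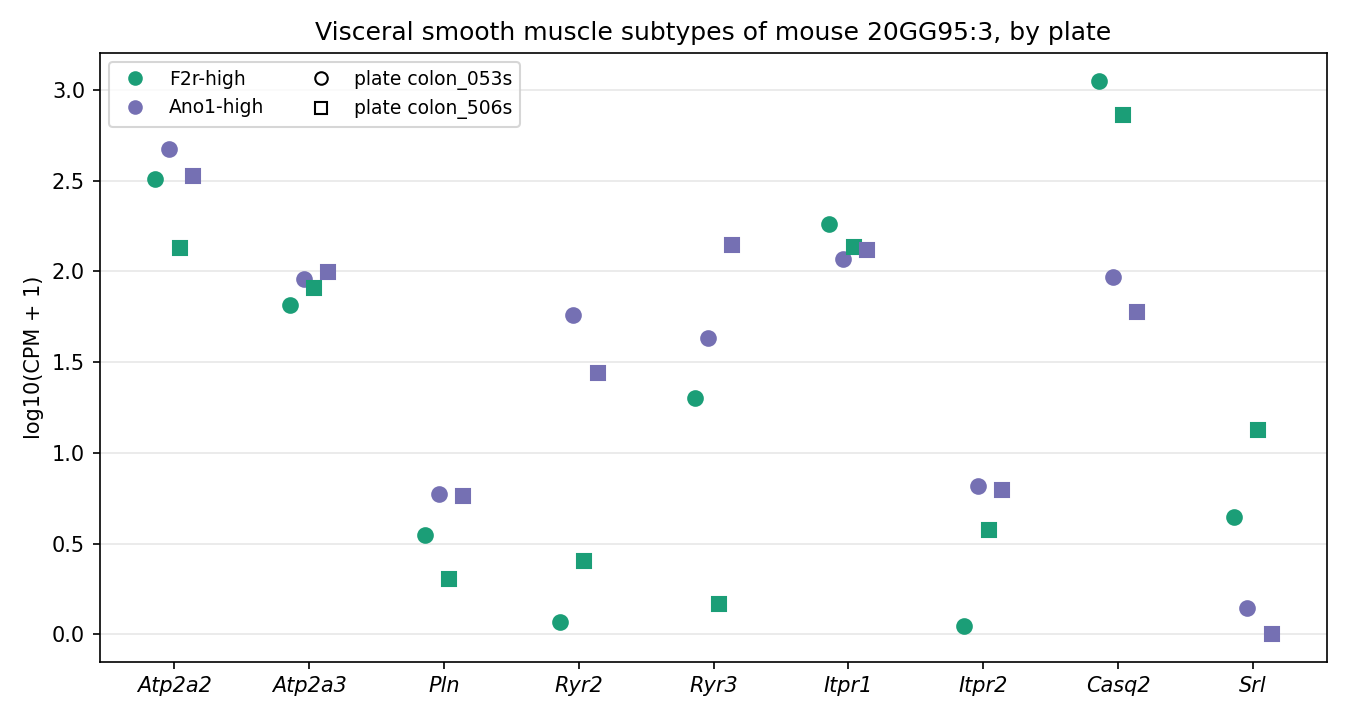
Level of each member, as log10(CPM + 1), in F2r-high and Ano1-high visceral cells of mouse 20GG95:3, with circles for plate colon_053s and squares for plate colon_506s. Ryr2 is higher in Ano1-high cells on both plates (56.2 against 0.165 CPM and 26.6 against 1.55 CPM) and Casq2 lower on both.

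In endothelium, the level of Atp2a3 was higher in blood vessels than in lymphatics. Before thinning, 158 of 363 blood endothelial and 19 of 76 lymphatic cells had an Atp2a3 count. Blood endothelium had 45.0 to 120 CPM over 6 mice, with a median of 104 CPM, and lymphatic endothelium 0.671 to 2.52 CPM over 4 mice, so the ranges did not overlap. In the 4 mice with both, lymphatic minus blood was -5.56 ± 1.45 (SE), lower in 4 of 4 mice, and did not pass (edgeR adjusted p = 0.088); over 12 alternatives the adjusted p ran from 1.19e-06 to 0.315 and passed in 3. This comparison was added after the levels were seen. Of 5 members tested, 0 were higher and 0 lower by edgeR, with 1 at an unadjusted p under 0.05 and 1 called by DESeq2; 0.979% and 1.01% of 9499 genes were higher and lower. Lymphatic cells instead had 86.3 to 274 CPM of Atp2a2, with a difference of 1.43 ± 0.85 (SE, edgeR adjusted p = 0.543). Ryr3 reached 48.0 CPM in the 9 lymphatic cells of 18CB39:3, where Aven, which lies opposite Ryr3, was at 157 CPM.

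The wider list of 73 genes of the store and of calcium cycling, 71 of them in the table, was read from the same fits. In visceral minus vascular, 58 were tested, 2 were higher and 7 lower, members included, with a median of 0.20 against 0.33 over all genes. The 2 higher were Calu (1.07 ± 0.31, edgeR adjusted p = 0.0134) and Rcn3 (1.32 ± 0.40, 0.0223), both encoding calcium-binding proteins of the secretory pathway with EF hands. Besides the members, Camk2g, a calmodulin kinase that phosphorylates phospholamban, fell by 1.77 (edgeR adjusted p = 0.00226). Tmem38b, a potassium channel of the store, fell by 2.10 (0.0129), and Mrvi1, which links IP3 receptors to cGMP signalling, fell by 1.13 (0.0198). Casq1, named after its values were seen, had 14.8 CPM in vascular and 0.0413 CPM in visceral muscle (edgeR adjusted p = 0.0332).

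In pericyte minus vascular, 53 list genes were tested, 0 were higher and 3 lower: Pln, Srl and Camk2g (-2.33 ± 0.49, edgeR adjusted p = 0.0487). The list's median was -0.25 against 0.22 over all genes. In pericyte minus visceral, 0 of 59 list genes passed, and in lymphatic minus blood endothelium 0 of 41.

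The genes whose levels were most like each member were sought over 29 sums of a mouse and class, among 9581 genes, as Pearson's r of log2(CPM + 1). Sums of a mouse share plates and depth, and the values describe likeness of pattern only. For Pln they were Susd5 (r = 0.911), Tcap (0.908) and Sctr (0.901). For Atp2a3 they were Trpm4 (0.907), Itga3 (0.820) and Myo1e (0.818). Casq2 was most like Cpxm2 (0.939), Pde1a (0.938) and Tagln (0.934), and Srl most like Pgam2 (0.868), Plin4 (0.865) and Kcnab1 (0.839).

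The channels and Atp2a2 had weaker matches. Itpr1 was most like Scaf11 (0.843), Akap1 (0.810) and Epn2 (0.809), and Atp2a2 most like Klhl38 (0.788), Cdh6 (0.787) and Nkd1 (0.779). Ryr3 was most like Hoxd10 (0.777), Lrrtm2 (0.758) and Adam1a (0.679), Ryr2 most like Klhl30 (0.725), Alkal2 (0.715) and Rbm24 (0.711), and Itpr2 most like H2-K2 (0.723), Gigyf2 (0.693) and Hid1 (0.667). Between members, Pln with Srl (0.757) and Atp2a2 with Casq2 (0.730) were alike, and Atp2a2 with Atp2a3 less so (0.227).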

How the data were processed

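Each of 1615 sorted colon cells was a Smart-seq2 library. The deposited table holds raw read counts per Ensembl gene and spike-in, not normalized by the authors; the submitters' processing notes name bcl2fastq, Bowtie, Bowtie2, featureCounts and Subread with builds GRCm38 and mm10, without roles or versions. Strand setting, sort gates, cell filters and any duplicate removal: not given in the sources used here. Spike-ins (1.88% of counts) were left out, and CPM is over the remaining rows. Symbols came from GENCODE for GRCm38. Counts may include PCR duplicates.

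Cells were clustered with scanpy 1.11.5 (76 markers and 2000 variable genes, 20 components, 15 neighbours, Leiden resolution 1.0), without calcium-list genes, and named from markers. The way variable genes were picked, the naming rules, the visceral kinds and the mixed-marker rule (167 cells) were settled after the clusters were seen and before the members were tested. Each library is 1 plate well with its own label, so no doublet caller was run. The members, lists and markers were chosen with earlier results of these data known.

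Counts per mouse and class (at least 5 cells) were tested with edgeR 4.0.16's quasi-likelihood test (TMM, filterByExpr, robust, mouse as a block), with Benjamini-Hochberg adjustment over all tested genes not used in clustering (threshold 0.05). The mouse block was used because each mouse gave both classes. The SE given with an edgeR difference is its absolute value divided by the square root of the test's F statistic. It therefore rests on the spread pooled over genes and is not a spread between the mice. DESeq2 1.42.0 was an alternative, as were RLE size factors, no low-count filter, no block, a spread shared over all classes, resolution 0.5, cells of at least 100000 counts, no mixed cells, each plate or mouse left out, and variants chosen after seeing the data (the lymphatic comparison, the unnamed cells as visceral, and the visceral cells of neither kind left out). Scripts were tested on simulated data. Named list genes were up to 4 per comparison and direction, by p, with at least 50 CPM in the higher class; likeness was limited to genes of at least 50 CPM in a sum. Per-length values used exon length. Cell shares were recomputed after thinning to 50000 counts, with shallower cells left out. Total gene counts of the class sums set the limits given for counts of 0.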

Additional observations from a re-analysis of the deposited data

Results flagged for a closer look

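In groups of 4 to 6 mice, 12 of 27 tested gene and class groups had a mouse far from the others by Dixon's test. Chance flags about 1 in 20 groups, and levels near 0 with 1 high mouse flag readily. In 20GG79:6, Casq2 was at 21.1 CPM in blood endothelium (next highest mouse 1.26 CPM) and at 120 CPM in epithelium (next 4.59 CPM). Without the cell of most counts these were 7.53 and 9.46 CPM. In 19CB27:3, Itpr2 was at 278 CPM in epithelium (next 55.1 CPM) and at 104 CPM in lymphatic endothelium (next 16.5 CPM), and without the top cell at 13.8 and 25.3 CPM.

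Pln was at 34.4 CPM in blood endothelium of 18CB39:3 (next 3.01 CPM) and at 14 CPM in lymphatic endothelium of PDGFRbGFP replicate 3 (next 1.68 CPM). Without the top cell, which held 72.5% and 90.7% of the counts, these were 9.78 and 1.31 CPM. In blood endothelium of 19CB4:5, Ryr3 was at 3.67 CPM (0.124 CPM without the top cell) and Ryr2 at 2.83 CPM (1 of 71 cells). Srl was at 3.10 CPM in blood endothelium of 18CB39:3, from 1 of 53 cells. The other flags rest on 1 to 4 counts: Ryr2 at 0.813 CPM in lymphatic endothelium of 18CB39:3, Srl at 0.0646 CPM in that of PDGFRbGFP replicate 3, and Ryr3 at 0.467 CPM in epithelium of the same mouse.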

How the results depend on the processing

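The 3 muscle and pericyte comparisons hold 2 mice each, so each call rests on few animals. With either mouse left out they could be fitted only with a spread shared over all classes. In those fits a class left with 1 sum was assumed to vary like the others. Their calls cannot be set against the fit reported, because the model changes along with the mice. In lymphatic minus blood endothelium, leaving out 1 mouse gave counts of genes called from 57.7% (without 19CB27:3) to 83.1% of the 189 with all mice. Without the replicate block (the pairing by mouse), visceral minus vascular called 1 member (Pln; 3 with it) and 184 genes (703 with it), pericyte minus vascular 1 member (Srl; 2 with it) and 10 genes (102 with it), and lymphatic minus blood endothelium called 1 member and 298 genes. With a spread shared over all classes the members called were 0, 0 and 1 and the genes 5, 2 and 415, and pericyte minus visceral called 0 genes (113 in the fit reported). DESeq2 called 1193, 697, 1559 and 1506 genes in visceral minus vascular, pericyte minus vascular, pericyte minus visceral and lymphatic minus blood, with 4 members in the third and 1 in the fourth; in the first, 706 were higher and 487 lower, against 345 and 358 by edgeR. Pericyte minus vascular called 160 genes with RLE size factors, 202 with no low-count filter, 41 without plate colon_053s, and 3 genes and 0 members without plate colon_506s. Visceral minus vascular called 329 and 326 genes without plates colon_053s and colon_506s. Pericyte minus visceral called 195 genes with no filter, 58 in deeper cells, 0 at resolution 0.5 or without mixed cells, and 195 genes and 1 member with the unnamed cells as visceral. Lymphatic minus blood called 364 genes with no filter and 116 in deeper cells. RLE moved the median over all genes from -0.60 to -0.41 in that comparison.

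Directions of uncalled members turned in some fits. With 1 mouse left out, Ryr2 ran from -1.78 to 0.0261 in visceral minus vascular, from -3.28 to 2.33 in pericyte minus vascular and from -1.49 to 2.30 in pericyte minus visceral, and Ryr3 from -5.38 to 0.014 in pericyte minus vascular. In pericyte minus visceral, Atp2a2 ran from -0.73 to 0.15, Itpr1 from -0.50 to 0.0915 and Srl from -3.31 to 4.86, and Pln in lymphatic minus blood endothelium from -1.85 to 1.25. Pericyte minus vascular Ryr2 also turned to 0.0793 with the shared spread and 0.59 without plate colon_053s. With the unnamed cells as visceral, Ryr2 turned to -1.01, Atp2a2 to 0.24, Srl to 0.0664 and Itpr1 to 0.0646 in pericyte minus visceral; Itpr1, at -0.09, also turned to 0.0052 with RLE and with DESeq2, 0.0025 without the replicate block, 0.0732 in deeper cells and 0.22 without plate colon_053s. Pln in lymphatic minus blood endothelium turned to 0.42 with DESeq2. The cause was not tested. The levels in the visceral kinds at resolution 0.5 stand beside those results. Of 50 class levels, 2 moved beyond 1 SD without either plate, and 0 at resolution 0.5, in deeper cells or without mixed cells. Fibroblasts and blood endothelium had no cell on these plates, so their levels could not move when a plate was left out. At resolution 0.5 vascular muscle, fibroblasts and blood endothelium kept the same cells, so only visceral and pericyte levels could move. Leaving out 1 mouse cannot move a mean by as much as 1 SD, so this measure cannot show how the levels depend on single mice.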
